A study of Mus musculus
Rattus norvegicus and Mus musculus and Rattus norvegicus with 95 samples.

Results

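The genes described here build the cytoskeleton of nerve cells and drive the fusion of vesicles with membranes. They were chosen by symbol: stathmins (Stmn1 to Stmn4), neurofilaments (Nefl, Nefm, Nefh), alpha and beta tubulins, the microtubule-associated proteins Map1a, Map1b, Map2 and Map6, synaptotagmins, synapsins, SNAP proteins, VAMPs and syntaxins. Of the 13926 mouse-rat homologues measured, 66 genes met this rule, and no row carried the symbol Map2. They comprised 4 stathmins, 3 neurofilaments, 5 alpha and 6 beta tubulins, 3 microtubule-associated proteins, 15 synaptotagmins, 3 synapsins, 5 genes named Snap, 7 VAMPs and 15 syntaxins. Snap91 entered by its symbol and encodes the clathrin adaptor AP180, not a relative of SNAP-25.

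Allodiploid embryonic stem cells (AdESCs) carry 1 chromosome set from mouse and 1 from rat in the same nucleus. For bulk RNA sequencing, cells in G0/G1 came from 8 lines with 1 library each: the mouse ESCs F145 and F146, the rat ESCs DA25 and DA53, and 4 AdESC lines named MR1-1, MR2-1, RM1-1 and RM2-1. Another 87 single cells were grouped by line and cell type into 11 samples: AdESCs of MR1-1 (6 cells), MR2-1 (8), RM1-1 (4) and RM2-1 (6), embryoid bodies (EBs, aggregates of differentiating stem cells) of MR2-1 (12) and RM1-1 (5), fibroblasts from a mouse chimaera of MR1-1 (10), 8 neurons and 4 cells labelled somatic testis from RM1-1 in a mouse host, and 4 cells labelled lung and 20 labelled somatic testis from RM2-1 in a rat host. Every single cell came from an AdESC line, no label gives an age or says whether the cells of a sample came from 1 animal or culture, and p-values therefore reflect no more than the scatter of these samples, which may be technical. Values are FPKM, fragments scaled to transcript length and library size, and a single-cell sample is given as the mean FPKM of its cells. A listed 0 in files without counts can also be a failed estimate.

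In cells, alpha and beta tubulin pair into the dimers of microtubules, and stathmins bind free dimers while microtubule-associated proteins stabilise the polymer. Neurons use particular tubulin isotypes and neurofilaments to build axons. Vesicles fuse when a VAMP on the vesicle zips with a syntaxin and a SNAP-25 relative on the target membrane; at synapses, synaptotagmin senses the calcium that triggers this step, and synapsins tether the vesicles.

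Markers of 2 single-cell samples went against their labels, at least in part. The testis-labelled RM1-1 cells expressed the growth-cone gene Gap43 (235 FPKM) and the radial glia gene Fabp7 (871 FPKM), while 7 of 10 Sertoli and 5 of 6 Leydig cell genes were at 0 (6 and 3 in RM2-1 testis cells). The Sertoli genes still summed to 289 FPKM, against 345 FPKM in RM2-1 testis cells, nearly all from Clu (287 FPKM, also 130 FPKM in the neuron sample), with Dhh at 2.03 FPKM. The Leydig genes summed to 6.71 FPKM, all from Star, against 21.8 FPKM, and the peritubular myoid genes to 39 FPKM against 4590 FPKM. The lung-labelled RM2-1 cells expressed the steroid enzyme Cyp11a1 at 1028 FPKM, and 0 of 5 lung epithelium genes reached 1 FPKM. The neuron sample had 14 of 18 neuron markers at 1 FPKM or more, summing to 362 FPKM, together with Fabp7 (1390 FPKM) and the astroglial glutamate transporter Slc1a3 (316 FPKM), whereas Rbfox3 of mature neurons stood at 0.0594 FPKM. In the testis-labelled RM1-1 cells 7 of 18 neuron markers reached 1 FPKM and 7 were at 0, with Dcx at 0.00462 FPKM and Mapt at 0.0403 FPKM. The 18 markers summed to 302 FPKM in these cells, of which Gap43 alone gave 235 FPKM. In the neuron sample Gap43 gave 224 of the 362 FPKM. Slc1a3 stood at 154 FPKM in the testis-labelled RM1-1 cells. In the other 9 samples the 18 neuron markers summed to between 0.522 and 19.8 FPKM. Both RM1-1 chimaera samples were therefore set against the other 9 together, and each single-cell count of members called is also given without the testis-labelled RM1-1 and lung-labelled RM2-1 cells. As the pair was joined on neural markers of these same data, higher neuronal members in it are in part given by that choice. Their p-values are descriptive. The sample labelled as neurons is called the neurons below by that label alone: 4 of its 8 cells held less than 1 FPKM of Tubb3, and its mean mixes both kinds of cell.

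Tubulin genes differ little in coding sequence, which bears on how far their values can be told apart. For 4 beta tubulins, the ends of the coding sequences, which specify the acidic tails that distinguish isotypes, are shown as the last 60 coding bases before the stop codon, 5′ to 3′ on the coding strand, from GENCODE vM21 transcripts of GRCm38. Capitals mark bases that differ from Tubb5 in the alignment or have no partner there.
Tubb5 (chr17:35834985-35835044, minus strand): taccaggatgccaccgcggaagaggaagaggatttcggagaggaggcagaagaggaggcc
Tubb2a (chr13:34074471-34074530, minus strand): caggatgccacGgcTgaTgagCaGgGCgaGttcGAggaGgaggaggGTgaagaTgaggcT
Tubb2b (chr13:34127474-34127533, minus strand): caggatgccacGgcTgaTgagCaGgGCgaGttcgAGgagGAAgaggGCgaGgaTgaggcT
Tubb3 (chr8:123421620-123421679, plus strand): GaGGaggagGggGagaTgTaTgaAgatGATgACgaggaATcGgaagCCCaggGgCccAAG
Over these 60 bases 15 are in capitals in Tubb2a, 18 in Tubb2b and 25 in Tubb3. Over the whole coding sequence, Tuba1a was 98.3% identical to Tuba1b and 97.1% to Tuba1c, and 58.4% and 63% of its 50-base windows occurred unchanged in those genes. Tubb2a and Tubb2b were 96.5% identical and shared 55.4% of such windows. Tuba4a and Tubb3 shared none with any other tubulin compared. The split of reads among Tuba1a, Tuba1b and Tuba1c, and between Tubb2a and Tubb2b, is thus uncertain. Tubb3 and Tuba4a do not meet this limit in their mouse coding sequence, among the genes compared. Tubb6, Tuba8 and the rat sequences were not compared.

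Against the other 9 samples, both RM1-1 chimaera samples together had higher Stmn3, Tuba1a, Tubb2a, Syt11, Syt4 and Snap25. These 6 were the calls among 46 members that passed the filter of a mean of 1 FPKM over the 11 samples (limma on log2(FPKM + 1), adjusted p under 0.05 over all genes). The other 20 members were too low to test. Stmn3, Syt4 and Snap25 passed that filter only through the RM1-1 chimaera samples in which they were high, so their calls are descriptive. No member was lower, while 2.3% of all 8421 genes tested were called, 1.95% higher and 0.356% lower. The median difference was 0.83 over the members tested and 0.14 over all genes. With the cell line as a block in the fit, 1 member was called, Stmn3 (4.60, adjusted p = 0.0452), and 1 was called without the testis-labelled RM1-1 and lung-labelled RM2-1 cells, again Stmn3 (5.33, adjusted p = 0.00297); both are limma values. With the neurons left out 3 were called (Stmn3, Syt11, Syt4), and with the testis-labelled RM1-1 cells left out 1 (Stmn3). When the other samples were fitted as 3 separate groups, 14 were called, 12 higher and 2 lower (Tuba4a and Vamp8). Both samples lay above each of the other 9 for 12 of the 46 members tested (Map1b, Snap25, Stmn1, Stmn3, Stx12, Syt11, Syt4, Syt5, Tuba1a, Tuba1b, Tubb2a and Tubb2b) and for 9.05% of all genes tested. Of these 12, Snap25, Stmn3, Syt4 and Syt5 passed the filter only through the RM1-1 chimaera samples. Both samples lay below all 9 for 0 members and for 3.16% of all genes. Without the testis-labelled RM1-1 and lung-labelled cells, the neurons lay above the other 8 samples for 20 of 46 members tested and for 17.6% of all genes. Of these 20, Stmn3, Snap25, Snap91, Syn1, Syt5 and Map1a passed the filter in this set only through the neurons, so that count is descriptive.

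**Figure D1:**
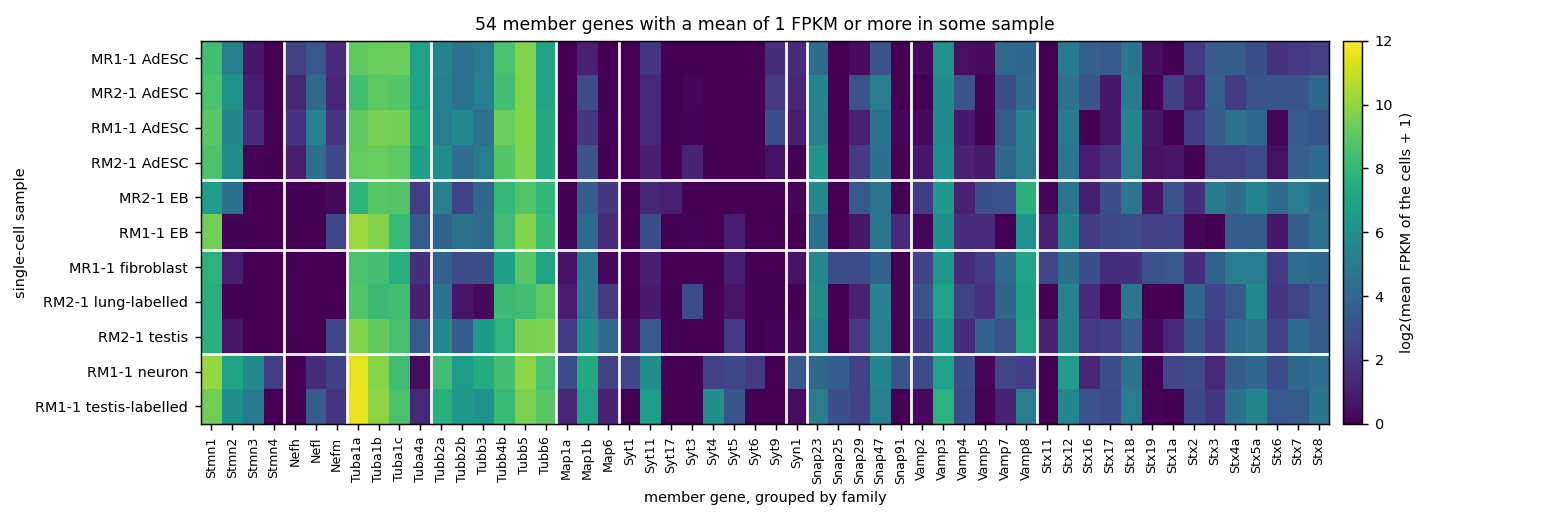
Heat map of log2(mean FPKM of the cells + 1) for the 54 member genes that reached a mean of 1 FPKM in some sample (columns, by family) in the 11 single-cell samples (rows). Tuba1a is brightest in the RM1-1 neuron and testis-labelled rows, Stmn3 and Syt11 stand out in the same rows, and Tuba4a is brightest in the 4 AdESC rows.

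**Figure D2:**
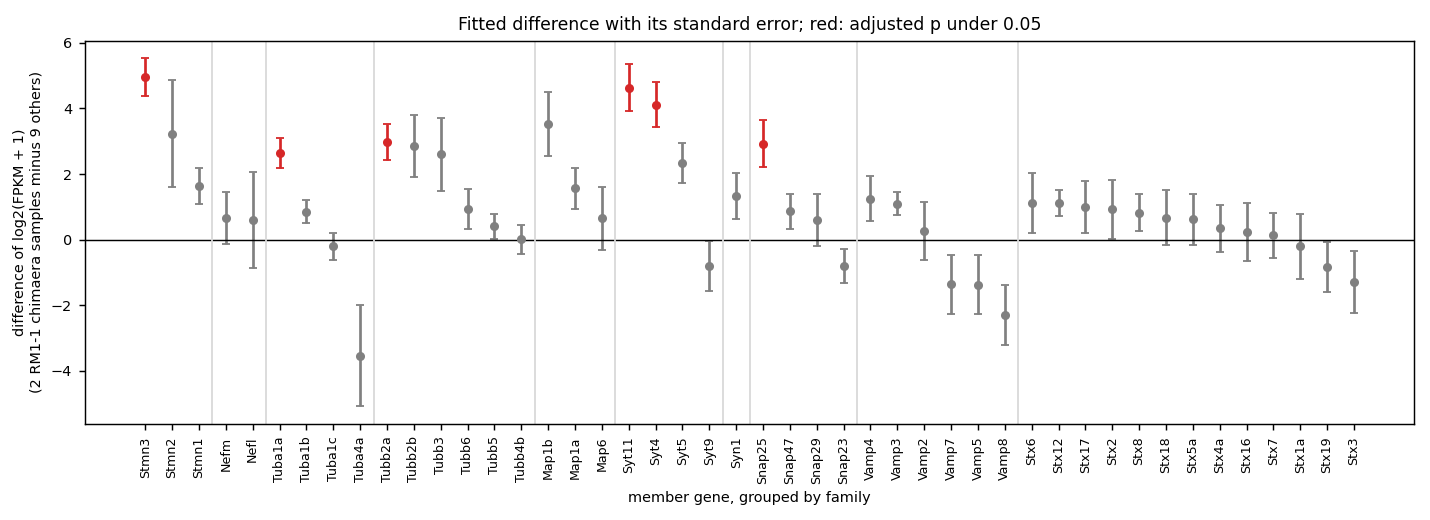
Fitted difference of log2(FPKM + 1) ± SE between the 2 RM1-1 chimaera samples and the other 9 for the 46 members tested, ordered within families. The 6 red points (Stmn3, Tuba1a, Tubb2a, Syt11, Syt4, Snap25) had an adjusted p under 0.05.

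Stathmins regulate microtubule turnover. Stmn3, a neural member anchored to Golgi and vesicle membranes, stood at 52.9 FPKM in the neurons and 28.7 FPKM in the testis-labelled RM1-1 cells, and between 0 and 1.74 FPKM in the other 9 samples. The groups did not overlap, and the difference was 4.95 ± 0.58 on the log2(FPKM + 1) scale (adjusted p = 0.000261). At 10 FPKM or more, a level chosen after the values were seen, it was found in 7 of 8 neurons and 2 of 4 testis-labelled RM1-1 cells, and in 0 cells of the other 9 samples. Stmn1, the ubiquitous member, was the most abundant stathmin in every sample: 1132 FPKM in the neurons, 707 FPKM in the testis-labelled RM1-1 cells and 107 to 694 FPKM elsewhere. Here the RM1-1 EBs, at 694 FPKM, nearly reached the testis-labelled cells, and the test was not passed (1.63 ± 0.54, adjusted p = 0.166). Stmn4 was at 3.46 FPKM in the neurons and at 0 in the other 10 samples.

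Stmn2, which maintains growing axons, had another distribution. It stood at 119 and 63.5 FPKM in the neurons and the testis-labelled RM1-1 cells, but also at 36, 69.9, 44.4 and 62.6 FPKM in AdESCs (line order MR1-1, MR2-1, RM1-1, RM2-1). It was at 20 FPKM in MR2-1 EBs, where 1 of 12 cells held 238 FPKM and 10 were at 0, and at 0.0516 to 0.915 FPKM in the RM1-1 EBs, fibroblasts, lung-labelled cells and RM2-1 testis cells. The 2 RM1-1 chimaera samples thus overlapped the AdESC range, and lay far above the other chimaera samples.

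Neurofilaments give large axons their calibre. Nefl, the light chain, stood at 8.72, 16.9, 37.6 and 18.8 FPKM in the 4 AdESC samples, at 1.87 FPKM in the neurons and 9.9 FPKM in the testis-labelled RM1-1 cells, and at 0 in the other 5 samples. In the neurons 1 of 8 cells reached 1 FPKM, and in the testis-labelled RM1-1 cells 1 of 4. Nefh, the heavy chain, was at 0.941 to 4.12 FPKM in AdESCs, at 0.047 FPKM in MR2-1 EBs and at 0 in the other 6 samples. Nefm, the medium chain, ran from 0 to 5.05 FPKM with no such divide.

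Among the proteins that bind microtubules, Map1b of growing axons stood at 153 FPKM in the neurons and 126 FPKM in the testis-labelled RM1-1 cells, against 1.16 to 7.96 FPKM in AdESCs, 10.9 and 17.2 FPKM in EBs, and 29.5, 29.8 and 58.8 FPKM in fibroblasts, lung-labelled cells and RM2-1 testis cells. Both samples were above the other 9, but the spread among the 9 was wide and the test against them together was not passed (3.52 ± 0.98, adjusted p = 0.0887). The lowest of the RM1-1 chimaera cells still held 83.3 FPKM. Map1a, its relative of mature axons, was at 5.64 and 1.37 FPKM, with RM2-1 testis cells at 3.34 FPKM between them. Map6, which protects microtubules from cold, was highest in RM2-1 testis cells (16.9 FPKM) and stood at 4.15 FPKM in the neurons and 1.27 FPKM in the testis-labelled RM1-1 cells.

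Tuba1a, the main alpha tubulin of the developing brain, reached 3009 FPKM in the neurons and 3197 FPKM in the testis-labelled RM1-1 cells. It stood at 528, 334, 515 and 550 FPKM in the AdESC samples, 213 and 1164 FPKM in EBs, and 391, 428 and 880 FPKM in fibroblasts, lung-labelled cells and RM2-1 testis cells. The samples did not overlap (2.64 ± 0.46, adjusted p = 0.00534), and Tuba1a made up 70.9% and 70.2% of summed alpha tubulin FPKM in the 2 samples against 18.9% to 50.5% in the other 9. Tuba1b, a broadly expressed copy, was also above all others at 909 and 975 FPKM (others 293 to 850), without passing the test (0.85 ± 0.34, adjusted p = 0.271). Tuba1c, at 323 and 381 FPKM, lay inside the range of the others (185 to 720). The 5 alpha genes summed to 4241 and 4554 FPKM in the 2 samples and to 920 to 2305 FPKM elsewhere.

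**Figure D3:**
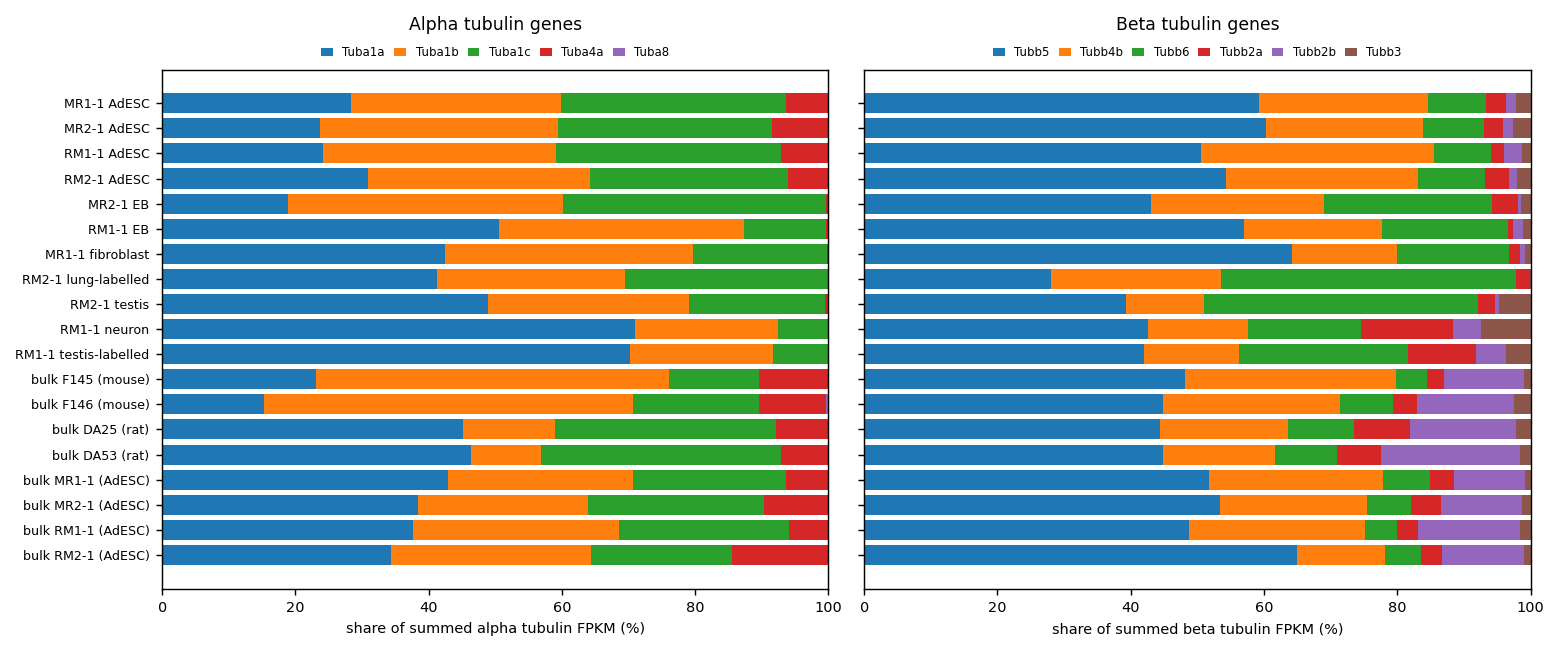
Stacked bars of the share (%) of each gene in summed alpha tubulin FPKM (left) and beta tubulin FPKM (right) for the 11 single-cell samples and 8 bulk libraries. Tuba1a fills 70.2% and 70.9% of the alpha bar in the RM1-1 testis-labelled cells and neurons, and Tuba4a shows in AdESC and bulk bars.

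Tubb2a, an isotype enriched in neurons, stood at 315 FPKM in the neurons and 194 FPKM in the testis-labelled RM1-1 cells, and at 11.9 to 57.3 FPKM in the other 9 samples (2.99 ± 0.55, adjusted p = 0.00792). Its neighbour Tubb2b, named in cortical malformations, followed at 96.1 and 85.5 FPKM against 0.627 to 49 FPKM (2.86 ± 0.95, adjusted p = 0.166). Tubb2a made up 13.8% and 10.3% of beta tubulin FPKM in the 2 samples and 0.851% to 3.81% elsewhere. Tubb5, the common beta tubulin of dividing cells, was the largest in both at 970 and 796 FPKM, against 315 to 879 FPKM in the other samples. Tubb4b, a broadly expressed isotype, was at 341 and 270 FPKM, inside the range of 117 to 607 FPKM elsewhere. Tubb6, a minor isotype, was at 386 and 478 FPKM, below the lung-labelled cells (499 FPKM) and RM2-1 testis cells (794 FPKM).

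Tubb3, the beta tubulin used to stain neurons, did not separate the groups. It stood at 169 FPKM in the neurons and 69.7 FPKM in the testis-labelled RM1-1 cells, but at 92.4 FPKM in RM2-1 testis cells, 21 to 35.4 FPKM in AdESCs and 0.184 to 17.2 FPKM in the other 4 samples (2.61 ± 1.11, adjusted p = 0.296). In RM2-1 testis 15 of 20 cells held 10 FPKM or more of Tubb3, and none of the 20 held as much Stmn2 or Stmn3. In AdESCs, by contrast, Tubb3 at 10 FPKM or more came with Stmn2 at that level in 5 of 5 such cells of MR1-1, 6 of 6 of MR2-1, 2 of 3 of RM1-1 and 3 of 4 of RM2-1.

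The cells of the RM1-1 neuron sample were split by Tubb3. In 4 of the 8 cells Tubb3 ran from 98.6 to 502 FPKM, and in the other 4 from 0.0903 to 0.969 FPKM. The same 4 cells held Stmn2 at 110 to 384 FPKM, against 0 to 1.02 FPKM in the other 4. Stmn4 was present in 2 of the 8 cells, at 16.9 and 10.8 FPKM, and both belonged to the cells with Tubb3. By contrast Tuba1a (1735 to 3304 FPKM), Tubb2a (152 to 416 FPKM) and Map1b (83.3 to 158 FPKM) were high in the 4 cells without Tubb3 as well. Synaptic genes did not follow the split as a set. In cells without Tubb3, Syn1 reached 38.8 FPKM and Snap25 31.5 FPKM, against 18.1 and 34.5 FPKM in those with it. Syt1 and Vamp2 reached 27.1 and 19.9 FPKM with Tubb3, and 0.11 and 6.36 FPKM without. The median of Syt11 was 85.6 FPKM without Tubb3 and 34.2 FPKM with it. Fabp7 ran from 275 to 830 FPKM in the cells with Tubb3 and from 1179 to 2737 FPKM in those without, and Slc1a3 from 16.7 to 90.5 FPKM and from 283 to 782 FPKM. Not every such marker separated the cells. Nes ran from 7.83 to 39.7 FPKM with Tubb3 and from 8.92 to 81.7 FPKM without. Olig1 ran from 2.19 to 50.7 FPKM with Tubb3 and from 19.8 to 65 FPKM without. Aqp4 was at 0 in the cells with Tubb3 and ran from 0 to 71.8 FPKM in those without. These are cells of 1 sample, sorted by their own Tubb3 value, so no test was made between them. The part of the glial and progenitor transcripts in the split was not tested. In the testis-labelled RM1-1 cells all 4 held Tubb3 (21.3 to 168 FPKM), and 2 of them Stmn2 and Stmn3 at 10 FPKM or more.

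**Figure D4:**
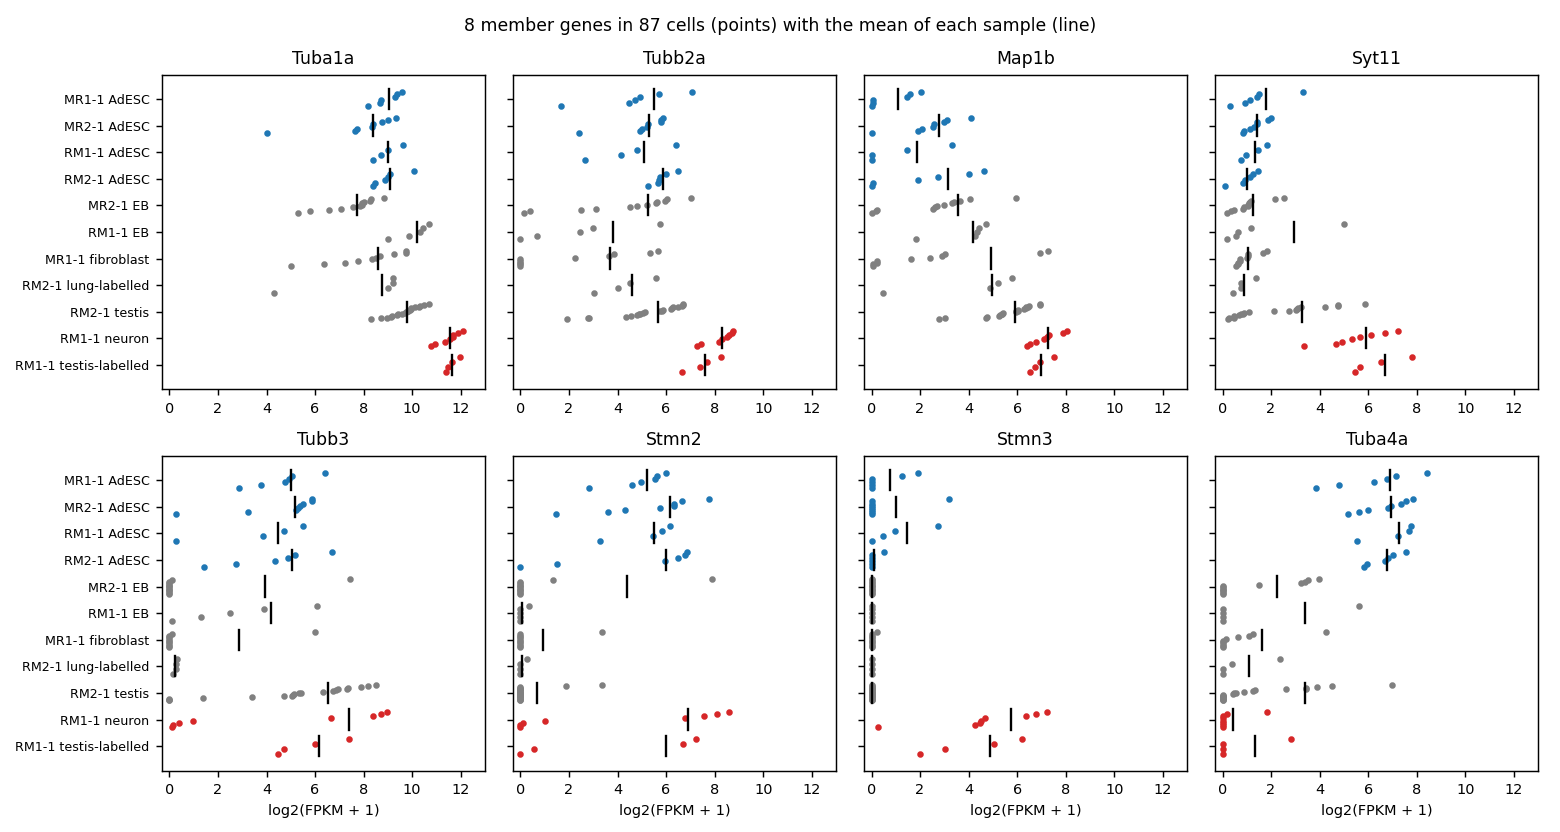
log2(FPKM + 1) of 8 member genes in each of the 87 cells (points, by sample; red, RM1-1 chimaera; blue, AdESC; grey, others), with the sample mean as a black line. Tuba1a, Tubb2a, Map1b and Syt11 are high in all 12 red cells, Tubb3 and Stmn2 in 4 of the 8 neurons, and Tuba4a in the blue cells.

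Synaptotagmins gave 2 of the 6 calls. Syt11, a member that does not bind calcium and restrains vesicle uptake, stood at 59 FPKM in the neurons and 102 FPKM in the testis-labelled RM1-1 cells, against 0.838 to 8.58 FPKM in the other 9 samples (4.64 ± 0.71, adjusted p = 0.00201). Each of the 12 cells held it, from 9.2 to 226 FPKM. Syt4, a member on dense-core vesicles, stood at 58.99 FPKM in the testis-labelled RM1-1 cells and 4.04 FPKM in the neurons, and at or below 0.0114 FPKM elsewhere (4.12 ± 0.68, adjusted p = 0.00349). It came from few cells: 1 of 8 neurons (32.2 FPKM) and 2 of 4 testis-labelled RM1-1 cells (up to 180 FPKM) reached 1 FPKM. Syt1, the calcium sensor of fast transmitter release, was at 4.77 FPKM in the neurons, with 3 of 8 cells at 1 FPKM or more, and at 0.00999 FPKM in the testis-labelled RM1-1 cells. Syt5 of dense-core vesicles was at 4.98 and 7.81 FPKM, above all the others (0 to 3.01), with an adjusted p of 0.0654.

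Genes of synaptic vesicle fusion came next. Snap25, the neuronal target-membrane SNARE, stood at 10.9 FPKM in the neurons and 6.56 FPKM in the testis-labelled RM1-1 cells, at 6.22 FPKM in MR1-1 fibroblasts and at 0 in the other 8 samples (2.93 ± 0.72, adjusted p = 0.0475). It was found at 1 FPKM or more in 3 of 8 neurons, 2 of 4 testis-labelled RM1-1 cells and 2 of 10 fibroblasts, and its call was lost when any one sample other than the fibroblasts was left out (adjusted p from 0.0582 to 0.445). Stx1a, its neuronal syntaxin partner, was at 4.63 FPKM in the neurons, 0 in the testis-labelled RM1-1 cells and up to 8.62 FPKM elsewhere (fibroblasts). Vamp2, the VAMP of synaptic vesicles, was at 5.61 FPKM in the neurons and 0.236 FPKM in the testis-labelled RM1-1 cells, inside the range of 0.0229 to 6.93 FPKM elsewhere, with 5 of 8 neurons at 1 FPKM or more. Syn1 was at 9.13 FPKM in the neurons and at most 1.88 FPKM in the other 10 samples (1.33 ± 0.70, adjusted p = 0.422), and Snap91 at 7.55 FPKM and at most 1.68 FPKM elsewhere. Syn2 and Syn3 stayed below 1 FPKM in every sample, as did Vamp1, the VAMP of spinal and motor synapses.

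General fusion genes covered a wide range. Vamp3 (cellubrevin), which serves recycling endosomes, stood at 124 FPKM in the neurons and 201 FPKM in the testis-labelled RM1-1 cells, against 53.6 to 124 FPKM elsewhere. It supplied 86% and 83.4% of summed VAMP and 28.5% to 67.8% in the other 9 samples. Stx12, a syntaxin of endosomes, was above all others at 94.4 and 46.6 FPKM (others 20.9 to 43.3; 1.12 ± 0.41, adjusted p = 0.218). Snap23, the broadly expressed relative of Snap25, was at 15.4 and 33.4 FPKM and still exceeded Snap25 in both samples, as it did in the other 9 (17.7 to 73.3 FPKM). Stx4a, the plasma membrane syntaxin, at 11.2 and 19.6 FPKM, and Stx7, of late endosomes, at 15.2 and 9.39 FPKM, lay inside the ranges of the others (2.96 to 34.4 and 3.03 to 32.6 FPKM). Others had few FPKM in the neurons, among them Vamp4 of the trans-Golgi network at 6.1 FPKM and Snap29, of autophagosome fusion, at 4.14 FPKM, under the level of Snap25. Of 13 syntaxins tested 0 passed, with a median difference of 0.62.

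Related genes outside the rule were read from 5 lists. Of 12 genes tested from a list of the neuronal cytoskeleton and axon transport, 2 (Gap43 and Mapt) are neuron markers already used above, so the level of Gap43 is a description. Of the other 10 genes, 3 were higher and none lower, where 1.95% of all genes were higher and 0.356% lower: the semaphorin mediators Crmp1 (4.49 ± 1.10, adjusted p = 0.0475) and Dpysl4 (2.15 ± 0.53, adjusted p = 0.0497), and the axonal motor Kif5c (2.57 ± 0.60, adjusted p = 0.039). Of 14 genes of the synaptic vesicle cycle 1 was higher, Rab3c (3.06 ± 0.56, adjusted p = 0.00704), at 2.46 and 19 FPKM. Dpysl4, Kif5c and Rab3c passed the filter only through the RM1-1 chimaera samples in which they were high, so these calls are descriptive. Of 25 genes of general membrane fusion 1 was lower, Stxbp2 (-3.37 ± 0.75, adjusted p = 0.0268), the Munc18 relative of epithelial and blood cells, at 0.194 and 0.0455 FPKM against 3.97 to 35.8 FPKM. With the line as a block, none of Crmp1, Dpysl4, Kif5c, Rab3c and Stxbp2 passed limma's test (adjusted p from 0.223 to 0.611). Without the neurons Rab3c alone passed of the 4 still tested, and without the testis-labelled RM1-1 cells, with or without the lung-labelled ones, none did; Dpysl4 and Rab3c were then too low to test. Without the testis-labelled RM1-1 and lung-labelled cells the calls outside the markers were Kif5a, an axonal motor, and Syp, synaptophysin. They belong to the first and the second list. Neither gene reached the filter over all 11 samples, so these calls are descriptive as well, also where the list counts below include them. None of 21 genes of tubulin folding and microtubule nucleation passed, and none of 7 repressors and RNA-binding regulators. Among these, Rest, which silences neuronal genes outside neurons, was at 1.46 and 0.918 FPKM, below the 2.4 to 18 FPKM of the other samples, with an adjusted p of 0.221.

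Set against the 4 AdESC samples alone, 11 members were higher and 1 lower in the RM1-1 chimaera cells, 12 of 46, where 15.4% of all genes were called, 9.18% higher and 6.25% lower. Besides the 6 genes above, the higher members were Map1b (4.89 ± 0.58, adjusted p = 0.000149), Syt5 (2.86 ± 0.58, adjusted p = 0.00521), Vamp3 (1.38 ± 0.31, adjusted p = 0.00985), Map1a (1.99 ± 0.60, adjusted p = 0.0407) and Tubb6 (1.61 ± 0.51, adjusted p = 0.0475). Like Stmn3, Syt4 and Snap25, the genes Syt5 and Map1a passed the filter only through the RM1-1 chimaera samples. Snap91 was too low to test over all 11 samples. Without the testis-labelled RM1-1 and lung-labelled cells it passed the filter only through the neurons, so its call there is descriptive. Tuba4a, an alpha tubulin of muscle and adult brain, was lower (-6.10 ± 0.64, adjusted p = 5.49e-05). With the line as a block 6 were called (Map1b, Stmn3, Syt11, Tuba1a, Tuba4a, Tubb2a), without the testis-labelled RM1-1 cells 5, and without these and the lung-labelled cells 7 (Map1a, Map1b, Snap91, Stmn3, Syt11, Syt5 higher, Tuba4a lower). Stmn2 did not differ beyond the spread (0.74 ± 0.88, adjusted p = 0.633).

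Set against the other chimaera cells (fibroblasts, lung-labelled and RM2-1 testis cells), 9 members were higher and 1 lower, 10 of 46, where 7.18% of all genes were called, 5.19% higher and 2% lower. The 3 stathmins tested were all among them: Stmn2 (5.89 ± 0.92, adjusted p = 0.00327), Stmn3 (5.31 ± 0.61, adjusted p = 0.000664) and Stmn1 (2.20 ± 0.53, adjusted p = 0.0292). Tubb2b (4.20 ± 0.80, adjusted p = 0.00922), Tubb2a, Tuba1a, Tuba1b, Syt11 and Syt4 were the others. Vamp8, the VAMP of epithelial and blood cell secretion, was lower at 3.56 and 33.1 FPKM against 113 to 129 FPKM (-3.30 ± 0.72, adjusted p = 0.0178). With the line as a block 0 members passed limma's test, and 9 of 46 had an unadjusted p under 0.05 (19.6%), as did 8.63% of all genes. Without the neurons 2 did (Stmn3, Syt4), without the testis-labelled RM1-1 cells 4 (Stmn2, Stmn3, Tubb2a, Vamp8), and without these and the lung-labelled cells 2 (Stmn3, Vamp8). These 2 comparisons and the first share the RM1-1 chimaera samples. The other chimaera cells include none of RM1-1, and those of RM2-1 came from a rat host. Cell type therefore cannot be told apart from line, or largely from host, in this comparison. Of the related lists, the 10 cytoskeleton and axon transport genes that are not neuron markers had 4 higher against AdESCs, where 9.18% of all genes were, and 3 against other chimaera cells, where 5.19% were. With the line as a block these counts were 1 and 0, and without the testis-labelled RM1-1 and lung-labelled cells 3 and 1. The synaptic vesicle list had 4 and 1 of 14 higher, 0 and 0 with the block, and 2 and 1 of 13 without those cells.

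In EBs against AdESCs, 3 of 46 members were lower and none higher, where 6.95% of all genes were called, 3.16% higher and 3.79% lower. Tuba4a stood at 119, 120, 153 and 108 FPKM in AdESCs, in the same line order, and at 3.76 and 9.64 FPKM in the EBs of MR2-1 and RM1-1 (-4.13 ± 0.64, adjusted p = 0.00171). It did not exceed 9.64 FPKM in any of the 7 differentiated samples, so its AdESC range was separate from all of them. Nefl, at 0 in both EB samples, was lower as well (adjusted p = 0.00282; no fold is given against a listed 0). Stmn2 was lower (-3.48 ± 0.88, adjusted p = 0.0307), though the 2 EB samples differed, at 20 and 0.0534 FPKM. With the line as a block Tuba4a and Nefl passed and Stmn2 did not (adjusted p = 0.0519). Without the testis-labelled RM1-1 and lung-labelled cells, Tuba4a and Nefl were lower and Vamp8 higher, and without MR2-1 EBs 5 members were lower (Nefl, Stmn2, Stx3, Tuba4a, Vamp7). Syt9, a calcium-binding synaptotagmin of endocrine cells, was at 0.48 to 6.54 FPKM in AdESCs and at 0 in both EB samples without passing the test (adjusted p = 0.11), and Vamp8 had its highest level, 197 FPKM, in MR2-1 EBs (2.18 ± 0.68, adjusted p = 0.0736).

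The bulk libraries showed the same members in mouse ESCs, rat ESCs and AdESC lines. Stmn2 stood at 55.9 and 37.7 FPKM in the mouse lines F145 and F146, 51.1 and 95.6 FPKM in the rat lines DA25 and DA53, and 17.2 to 135 FPKM in the 4 AdESC lines. Nefl was at 35.1 and 18.5, 15.1 and 75.4, and 9.98 to 50.2 FPKM in the same order, and Tuba4a at 71.3 and 40, 157 and 222, and 82.2 to 118 FPKM. Each of these genes was thus present in all 8 libraries. Syt9 was the largest synaptotagmin, with 58.8% to 83.7% of their summed FPKM in every library. Snap25, Syt1 and Syt4 did not exceed 0.163 FPKM in any of them. A bulk value cannot tell fewer cells with a transcript from less RNA per cell. Tubb2b differed between methods, at 152 to 348 FPKM in bulk AdESCs and 18.5 to 49 FPKM in single AdESC samples.

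Between rat and mouse ESCs 13 members were higher in rat and 5 lower, 18 of 44 tested, where 26.6% of all genes were called, 14.1% higher and 12.6% lower. Stmn1 stood at 516 and 518 FPKM in rat and 127 and 95.3 FPKM in mouse (2.22 ± 0.25, adjusted p = 0.000209), Tuba1a at 908 and 1447 against 160 and 60.3 FPKM (3.53 ± 0.56, adjusted p = 0.00151), Tuba1c at 667 and 1127 against 93.8 and 74.8 FPKM (3.36 ± 0.49, adjusted p = 0.000953) and Tubb2a at 179 and 222 against 36.3 and 34.7 FPKM (2.45 ± 0.33, adjusted p = 0.000616). Vamp3 was at 80.9 and 79 against 13.3 and 28 FPKM (1.99 ± 0.33, adjusted p = 0.00208). The other genes higher in rat were Tuba4a, Tubb6, Tubb2b, Tubb5, Stx17, Stx18, Stx8 and Vamp7; without Vamp7, which was listed at 0 in both mouse lines, the higher count is 12. Those lower in rat were Map6 (-2.74 ± 0.47, adjusted p = 0.00231), Snap47, Nefh, Map1a and Stx3. Without DA53 the count was 9, 8 higher and 1 lower. Tuba1b stood at 277 and 327 FPKM in rat and 365 and 220 FPKM in mouse, with overlap, and took 10.5% to 13.8% of alpha tubulin in rat and 52.9% to 55.5% in mouse; how reads of these near-identical genes were assigned on 2 genomes was not tested.

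**Figure D5:**
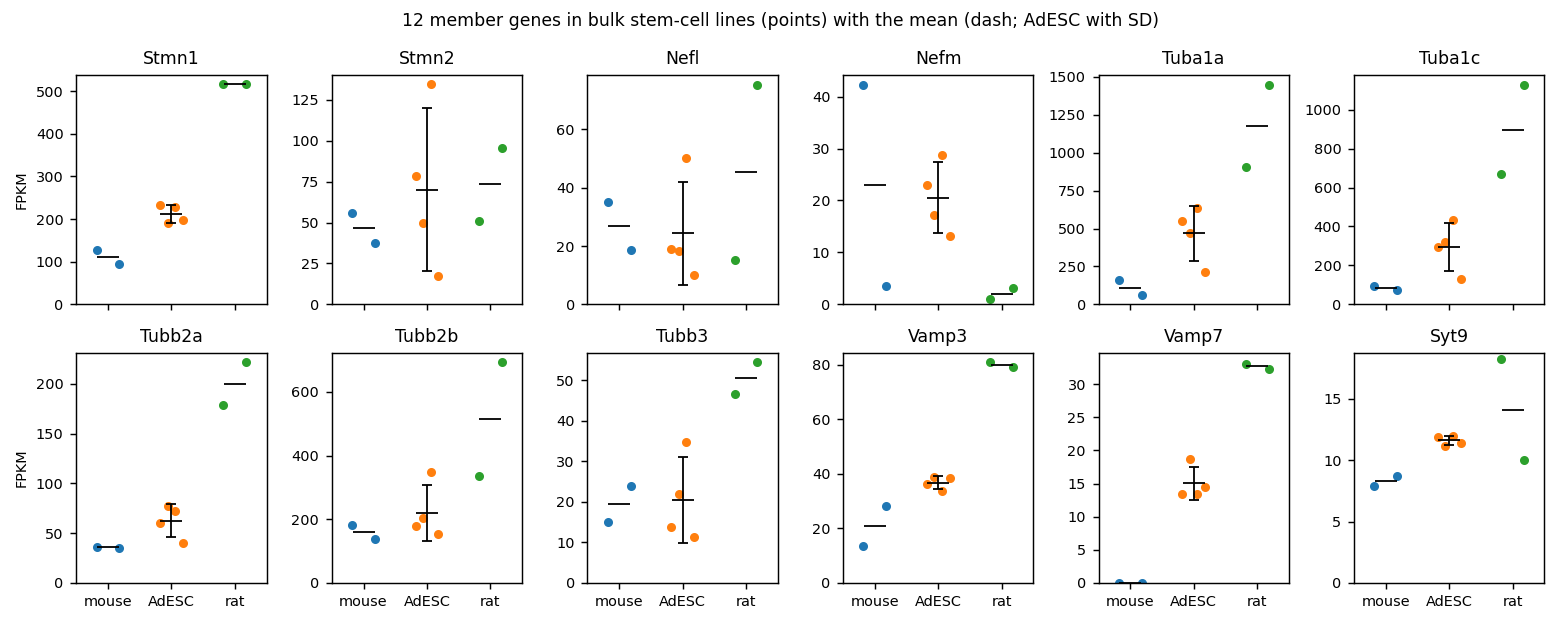
FPKM of 12 member genes in bulk libraries of mouse ESC (2 lines), AdESC (4 lines) and rat ESC (2 lines), with the mean as a dash and, for AdESCs, the SD. For Stmn1, Tubb2a and Vamp3 each AdESC line lies above both mouse lines and below both rat lines, and Vamp7 is at 0 in both mouse lines.

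For Stmn1, Tuba1a, Tuba1c, Tubb2a and Vamp3 every AdESC line lay between the mouse and the rat lines. These were picked from members called between rat and mouse ESCs. Of the other members so called, Tuba4a, Stx8, Stx18, Vamp7, Map6 and Map1a lay between in the same way. The share of all genes lying between was not counted, so this is no trait particular to the members. Against mouse ESCs 3 of 44 members were higher and none lower, where 3.89% of all genes were called, 2.71% higher and 1.18% lower: Vamp7, a VAMP of lysosomes and neurite growth that was listed at 0 in both mouse lines (33.1 and 32.4 FPKM in rat), Tuba1a (2.13 ± 0.48, adjusted p = 0.0435) and Stmn1 (0.94 ± 0.22, adjusted p = 0.045). In the order MR1-1, MR2-1, RM1-1, RM2-1, Tuba1a was at 549, 468, 638 and 215 FPKM and Stmn1 at 233, 191, 229 and 199 FPKM, above both mouse lines in each case. Whether that 0 is an absent transcript or a missing estimate was not tested; the count without Vamp7 is 2, and 10 of the 238 genes higher in AdESCs were listed at 0 in both mouse lines. Without DA25, DA53, MR1-1, MR2-1 or RM1-1 Vamp7 was the 1 call, so no other member remained. Against rat ESCs 3 were higher and 7 lower, 10 of 44, where 9.7% of all genes were called, 5.79% higher and 3.91% lower. After upper-quartile scaling, 4 were higher and 4 lower. The lower members were Stmn1 (-1.28 ± 0.22, adjusted p = 0.00515), Tubb2a (-1.70 ± 0.29, adjusted p = 0.00503), Tubb6, Vamp7, Tuba1c, Stx17 and Vamp3. The higher ones were Stx3 (1.52 ± 0.35, adjusted p = 0.0227), Nefm (2.85 ± 0.73, adjusted p = 0.037) and Stmn3 (1.64 ± 0.45, adjusted p = 0.0451). Nefm stood at 13.1 to 28.8 FPKM in AdESCs and 1.02 and 3.11 FPKM in rat, but its mouse lines split, at 42.2 and 3.62 FPKM. Without DA53 0 members passed limma's test, and 12 of 44 had an unadjusted p under 0.05 (27.3%), as did 13.6% of all genes; without DA25 2 passed (Tubb2a, Tubb6). Without MR2-1 the count was 5, and without RM1-1 or RM2-1 6. Both comparisons share the AdESC libraries. In single cells, where no mouse or rat ESCs were measured, Vamp7 was at 6.34 to 16.7 FPKM in AdESCs. It was at 4.6 FPKM in the neurons and 1.18 FPKM in the testis-labelled RM1-1 cells.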

How the data were processed

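The authors deposited FPKM values, 1 per gene and library or cell. FastQC 0.10.1, TopHat2 2.0.10 and Cufflinks 2.1.1 and the builds mm10 and rn5 are named, per the submitters' processing notes. How mouse and rat values were joined for AdESC libraries is not given in the sources used here. Depth is unknown, so no counting intervals or floors are given, and the numbers of lines, samples and cells limit the precision. Summed FPKM ran from 312695 to 377664 in bulk libraries and from 213045 to 411555 in cells.

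Cells are not replicates: each of the 11 samples entered as the mean FPKM of its cells. Cells with identical values numbered 0. Differences were fitted with limma 3.58.1 (R 4.3.3, with a trend in the prior variance) on log2(FPKM + 1). A gene was tested where its mean over the fitted samples reached 1 FPKM, which left 8421 genes in single cells and 8794 in bulk, with Benjamini-Hochberg adjustment over all of them and a threshold of 0.05. The first comparison was fitted with 2 groups, the other single-cell comparisons in 1 fit with 4 groups, the bulk ones in 1 with 3. A fold on this scale understates the change of low genes. The fits of the first comparison and of bulk AdESCs against mouse ESCs were run on simulated data with independent normal noise. Such data do not copy the zeros and single high cells seen here, so they do not vouch for these p-values.

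The members, the lists and the joining of the 2 RM1-1 chimaera samples were chosen with earlier results of these data known. Named genes were every member called in the first comparison, a set of neuronal and general members, the 5 largest called in each direction in the other comparisons, and the 3 largest called in each direction per list. Syt5, Syt9, Tuba4a, Dpysl4, Rest and the other genes given outside this rule were named after their values were seen.

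AdESC, EB and chimaera samples of 1 line share that line, so an alternative fit used the line as a block. As a check of this pairing, deviations from group means were correlated across genes: same-line pairs of an AdESC and a differentiated sample gave -0.00946 to 0.0203 (5 pairs) and other pairs -0.026 to 0.0347 (15 pairs). The RM1-1 neurons and testis-labelled cells were not part of this check, so it does not cover them. Deviations of the MR2-1 and RM1-1 EBs mirror each other, so the pairs are not independent. Other alternatives were a pseudocount of 0.1, no filter, a mean of 5 FPKM, upper-quartile scaling, no trend, means of log values, 4 groups in the first comparison, and each sample left out. Leaving out the testis-labelled RM1-1 and lung-labelled RM2-1 cells was added after seeing the data. Tubulin coding sequences are the longest complete coding transcripts of GENCODE vM21, aligned globally, and a 50-base window was shared if identical.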

Additional observations from a re-analysis of the deposited data

Results flagged for a closer look

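Among the 4 AdESC lines, picked members with at least 1 FPKM in some line were checked for a line set apart from the other 3. Dixon's test was used, which by chance marks about 1 in 20 such groups. It marked 4 of 63 groups, all in single cells. That share is near the chance rate, so the values below are descriptions and not traits of a line. RM1-1 AdESCs held Tubb2b at 48.95 FPKM against 18.5 to 22.9 FPKM in the others. MR2-1 AdESCs were marked for 3 genes. Tuba1a was at 334 FPKM against 515 to 550 FPKM in the others. Vamp4, a VAMP of the trans-Golgi network, was at 7.75 FPKM against 0.426 to 1.17 FPKM. Stx1a stood at 3.82 FPKM against 0 to 0.613 FPKM.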

How the results depend on the processing

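Counts of members called stayed within 1.5 times the main count in 88 of 116 recomputed counts, and among 1700 recomputed counts and values 0 called directions reversed. With the cell line as a replicate block, 1 member was called against all 9 other samples, 6 against AdESCs and 0 against the other chimaera cells, and Stmn2 was lost in EBs; the block changed no other call there. Without the testis-labelled RM1-1 and lung-labelled RM2-1 cells the first 3 counts were 1, 7 and 2. With 4 groups in the fit the first count was 14. With no filter on low values, counts were 6 against the other chimaera cells, 1 for bulk AdESCs against mouse and 4 against rat; without the trend, 1 against mouse. Leaving out 1 sample at a time gave ranges of 1 to 7 against all others, 5 to 13 against AdESCs, 2 to 11 against the other chimaera cells, 2 to 5 for EBs, 1 to 3 for bulk AdESCs against mouse, 0 to 13 against rat, and 9 to 19 for rat against mouse; where an arm kept 1 sample, it was assumed to vary like the others. The cause of these changes was not tested. Snap25 against all others was lost with a pseudocount of 0.1 (adjusted p = 0.0868) and after upper-quartile scaling (0.0833), and Syt4 at a mean of 5 FPKM (0.114). The median difference over all genes went from 0.14 to -0.01 against all others, and from 0.21 to 0 against the other chimaera cells, once upper quartiles were equalised. Depth is unknown, so low values cannot be told from missed transcripts.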
